A study of Mus musculus with 15 samples.

Results

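The replication genes described here are 10 named genes whose products unwind DNA, hold the polymerases on it or supply its building blocks. They were taken by gene name from the deposited counts of hematopoietic stem cells (HSC), where all 10 were among the 16154 genes listed: Mcm2, Mcm3, Mcm4, Mcm5, Mcm6, Mcm7, Gins2, Pcna, Rrm2 and Tyms. HSC were compared between young mice aged 6 to 12 weeks, aged mice of 20 to 24 months, and aged mice that had nicotinamide riboside (NR), a precursor of NAD, at 3 mg/ml in their drinking water for 2 months. All mice were C57BL/6 and female by the labels, and each group had 5 mice with 1 library per mouse, made from 20000 to 25000 cells. The study sorted HSC from bone marrow as lineage-negative Sca-1+ cKit+ CD150+ CD48- cells. The libraries read the 3′ end of poly(A) RNA and carried a unique molecular identifier (UMI) of 10 bp.

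A cell copies its DNA by first loading the MCM2 to MCM7 ring, the core of the replicative helicase, onto replication origins in G1. In S phase CDC45 and the GINS complex join the ring and turn it into an active helicase. PCNA is the sliding clamp that keeps the polymerases on the template. Ribonucleotide reductase, of which RRM2 is the small subunit, makes deoxyribonucleotides, and thymidylate synthase, encoded by Tyms, makes dTMP from dUMP. The genes of this machinery are known targets of E2F transcription factors and are used as markers of cells in or near S phase. Most HSC in adult marrow are quiescent. In bulk libraries, fewer cycling cells and less replication RNA per cell cannot be told apart.

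The total counts ranged from 764119 in aged replicate 2 to 13318989 in aged replicate 3, and the lowest count behind any value of a replication gene was 13, for Gins2 in aged replicate 2. Depth differed between the groups, with a median total of 2685760 in young, 6007460 in aged and 3162430 in NR-treated libraries. Calls on counts thinned to the smallest total are therefore given in the closing section. Levels are in CPM, a gene's counts scaled to a common library size, with sizes corrected by edgeR's TMM method. All 11 HSC markers examined were detected in every library, with summed levels of 1635 to 2040 CPM in young, 1916 to 2455 CPM in aged and 1743 to 2247 CPM in NR-treated HSC. Transcripts of other blood cells also differed between the groups. The 16 mature leukocyte markers summed to 3148 to 6518 CPM in aged HSC, to 406 to 723 CPM in NR-treated HSC and to 626 to 7710 CPM in young HSC, where replicate 3 was the highest. The 11 erythroid markers summed to 5580 to 9010 CPM in aged HSC, against 2362 to 4702 CPM in young and 1974 to 3106 CPM in NR-treated HSC. The 11 progenitor markers summed to 854 to 1540 CPM in aged, to 356 to 489 CPM in NR-treated and to 347 to 1380 CPM in young HSC, again highest in young replicate 3. In edgeR's quasi-likelihood test 7 of the 11 progenitor, 8 of the 11 erythroid and 12 of the 16 leukocyte markers were called lower in NR-treated than in aged HSC, where 4.18% of all genes were. Between aged and young HSC the erythroid list went both ways, with 5 of 11 called higher and 1, Gata1, lower. Over all genes 9.68% were called higher there and 9.63% lower. The progenitor list also went both ways. Cd34 (149 to 223 CPM in young, 67.5 to 78.9 CPM in aged) and Flt3 (9.71 to 19.6 and 1.30 to 4.80 CPM) were called lower in aged HSC, and Prtn3 higher. Of the 16 leukocyte markers, 8 were at 0 in at least 1 NR-treated library. Against their female label, 2 young libraries carried Y-linked transcripts: 4 such genes summed to 99.7 CPM in replicate 1 and to 105 CPM in replicate 5, and to 0.731 to 3.00 CPM in the other 13 libraries. The numbers of genes called against young HSC are therefore also given without these 2 libraries.

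The helicase genes lie on separate parts of the genome. In GRCm38, with GENCODE M21, Mcm2 is at chr6:88883474-88898780 on the minus strand, Mcm5 at chr8:75109569-75128439 on the plus strand and Mcm6 at chr1:128331590-128359664 on the minus strand. Rrm2 is at chr12:24708241-24714146 on the plus strand. A stretch of 150 bases upstream of the RefSeq start, outside any annotated exon, is shown for these 4 genes because they stand for the outcomes described below. Mcm5 and Mcm2 were lower in aged HSC, Mcm6 did not pass the test there, and Rrm2 was lower after NR. Each stretch runs from 180 to 31 bases before the start, 5′ to 3′ on the strand of the gene, in RefSeq's GRCm38.p6. Capitals mark E2F letters (TTTCCCGC, TTTCGCGC, TTTGCCGC or TTTGGCGC), the CCAAT box and the letters TTTGAA, known as a cell cycle homology region, each on either strand.
Mcm2 promoter, chr6:88898811-88898960, minus strand: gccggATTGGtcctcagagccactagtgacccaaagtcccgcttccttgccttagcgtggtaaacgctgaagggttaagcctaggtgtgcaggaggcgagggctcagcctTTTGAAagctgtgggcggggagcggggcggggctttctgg
Mcm5 promoter, chr8:75109329-75109478, plus strand: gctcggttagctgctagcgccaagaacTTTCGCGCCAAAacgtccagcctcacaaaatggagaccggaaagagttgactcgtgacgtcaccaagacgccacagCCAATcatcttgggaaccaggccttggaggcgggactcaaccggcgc
Mcm6 promoter, chr1:128359736-128359885, minus strand: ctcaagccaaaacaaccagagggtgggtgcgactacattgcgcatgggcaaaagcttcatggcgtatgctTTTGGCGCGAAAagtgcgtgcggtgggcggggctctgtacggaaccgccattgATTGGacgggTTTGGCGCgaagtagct
Rrm2 promoter, chr12:24708074-24708223, plus strand: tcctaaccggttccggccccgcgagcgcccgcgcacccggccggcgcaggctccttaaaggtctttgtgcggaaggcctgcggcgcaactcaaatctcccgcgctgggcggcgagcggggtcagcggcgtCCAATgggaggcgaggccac
In Mcm5 and in the first capital run of Mcm6, 2 E2F matches on opposite strands overlap by 4 letters. Of the 8 replication genes with a promoter in the table, 4 held E2F letters in the 300 bases around a start, namely Mcm3, Mcm5, Mcm6 and Mcm7. These letters were in 2.26% of all 32851 promoters of that length and in 3.84% of the 13194 promoters of counted genes. CCAAT was found in 7 of the 8, with Tyms the exception, against 37.41% of all promoters, and TTTGAA in Mcm2 alone, against 17.89%. Of the helicase genes with E2F letters, Mcm3, Mcm5 and Mcm7 were lower in aged HSC, and Mcm6, with 3 matches, did not pass. Mcm2 has none in this window and was lower. Whether these letters bear on the level in aged HSC was not tested. Promoter sequences of Mcm4 and Gins2 were not used here.

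The first comparison asked how replication transcripts differ between young and aged HSC. Of the 10 genes, 5 were lower in aged HSC, all of them helicase subunits (Mcm2, Mcm3, Mcm4, Mcm5 and Mcm7), by 26.4% to 39.0%. Over all genes 9.63% were called lower, 9.68% higher and 19.3% in either direction, at an adjusted p under 0.05 in edgeR's quasi-likelihood test after Benjamini-Hochberg correction. The sixth helicase gene, Mcm6, and the genes for GINS, the clamp and nucleotide synthesis did not pass. None of the 10 was called higher by this test, at an unadjusted p under 0.05, or by the likelihood ratio test, DESeq2 or limma-voom (0 of 10 each). The median log2 fold change of the 10 was -0.31, against -0.03 for all genes tested.

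**Figure D1:**
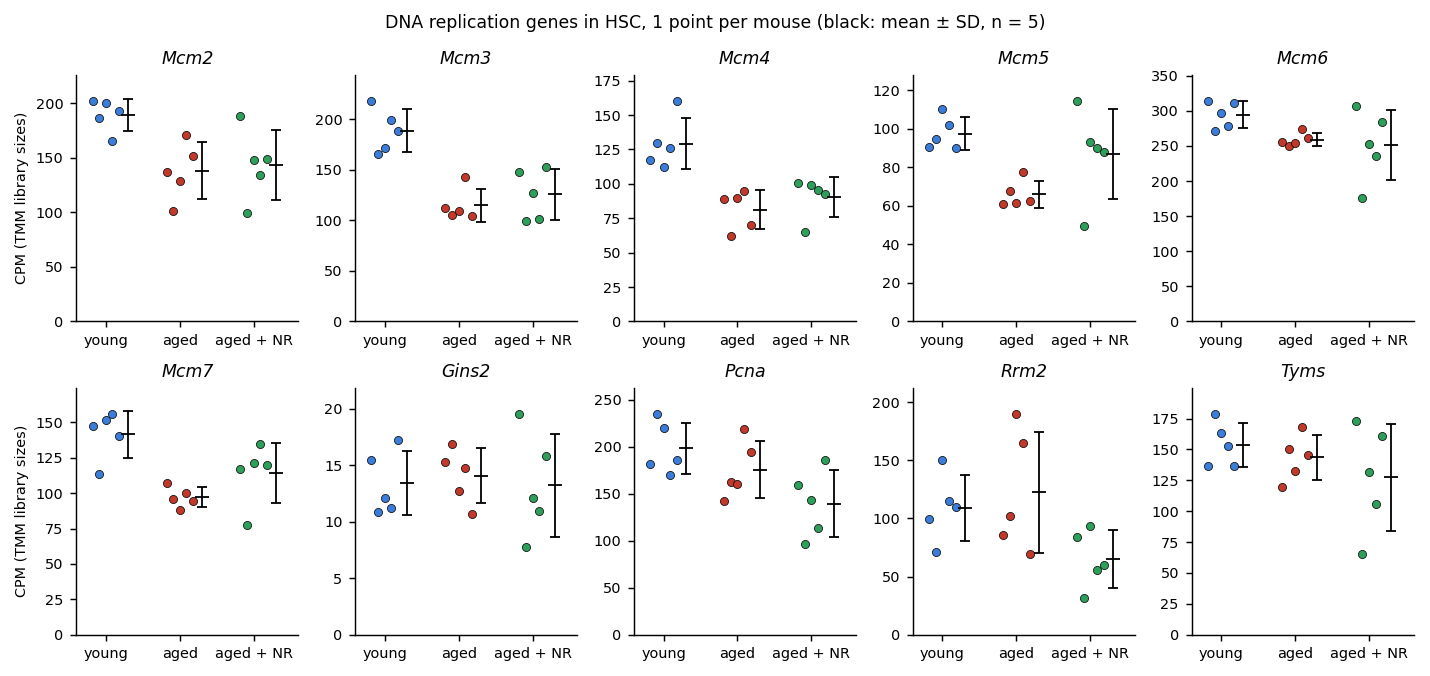
Level of each replication gene in CPM with TMM library sizes (y axis, linear, from 0) in young, aged and NR-treated aged HSC. Each point is 1 mouse, and the black mark and bars are the mean ± SD of 5; the aged points of Mcm3, Mcm4, Mcm5 and Mcm7 lie below all the young points, and 2 aged points of Rrm2, at 189 and 165 CPM, lie above all the others.

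Mcm3 had the largest difference between aged and young of the 10. It was at 218, 166, 172, 199.5 and 189 CPM in young replicates 1 to 5, at 112, 105, 109.6, 143 and 104 CPM in aged replicates 1 to 5, and at 148, 99.0, 127, 102 and 153 CPM in NR-treated replicates 1 to 5. The highest aged library, replicate 4, was still below the lowest young one. From 189 ± 21.2 CPM in young HSC to 115 ± 16.1 CPM in the aged (SD, n = 5 each) Mcm3 fell by 0.71 on the log2 scale (SE 0.13; adjusted p = 0.00117 in edgeR's quasi-likelihood test). Mcm3 also separated NR-treated from young HSC, where it was lower by 33.3% (log2 fold change -0.59, SE 0.13, adjusted p = 0.0139) with no overlap between the 2 groups.

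Mcm4, whose protein forms a subcomplex with MCM6 and MCM7, had the second largest difference. In young replicates 1 to 5 it was at 118, 129, 112, 126 and 160.2 CPM, in aged replicates at 88.9, 62.3, 90.0, 95.1 and 70.3 CPM, and in NR-treated replicates at 101, 65.3, 99.2, 95.3 and 92.6 CPM. Every aged and every NR-treated library was below every young library. The difference was -0.65 on the log2 scale between aged and young HSC (SE 0.14, adjusted p = 0.00338) and -0.51 between NR-treated and young HSC (SE 0.14, adjusted p = 0.0386). Mcm4 starts 466 bases from the start of Prkdc, a DNA repair kinase gene on the other strand. Prkdc did not pass the test in any of the 3 comparisons (22.4, 19.7 and 23.2 CPM on average in young, aged and NR-treated HSC).

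Mcm5 encodes the subunit that forms, with MCM2, the gate of the ring. It was at 90.5, 94.8, 110.5, 102 and 89.8 CPM in young, at 61.0, 67.5, 61.4, 77.5 and 62.7 CPM in aged and at 114, 49.8, 93.3, 89.9 and 87.7 CPM in NR-treated replicates 1 to 5. All aged libraries lay below all young ones, while the NR-treated libraries spanned both groups: 4 of 5 were above every aged library and replicate 2 was below every aged library. The log2 difference was -0.56 between aged and young HSC (SE 0.16, adjusted p = 0.0172).

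Mcm7 was at 147, 114, 151, 156 and 140.2 CPM in young, at 107, 96.0, 87.9, 100.3 and 94.6 CPM in aged and at 117, 77.8, 121, 134 and 119.8 CPM in NR-treated replicates 1 to 5. Aged and young HSC did not overlap, and 4 of the 5 NR-treated libraries were above every aged library. It fell by 0.54 on the log2 scale from young to aged HSC (SE 0.13, adjusted p = 0.00653). Mcm7 shares 321 exon bases with Ap4m1 and 64 with Cops6, both on the opposite strand, and the strand setting of the counting is not given in the sources used here, so reads over these bases cannot be assigned with certainty. Ap4m1, which encodes an adaptor protein subunit and starts inside Mcm7's first part, had lower counts in aged than in young HSC (5.84 against 13.1 CPM on average, log2 fold change -1.13, adjusted p = 0.0104). Its counts were higher in NR-treated than in aged HSC (12.4 CPM on average, log2 fold change 1.04, adjusted p = 0.0321 in edgeR's quasi-likelihood test). This second call held in 9 of 15 fits with 1 library left out. Cops6, a subunit of the COP9 signalosome, did not pass in any comparison (199.6 CPM in aged and 180.2 CPM in young HSC).

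Mcm2 was the weakest of the 5 calls. It was at 202, 187, 199.8, 165 and 193 CPM in young, at 137, 101, 129, 171 and 152 CPM in aged and at 189, 99.6, 148, 134 and 149 CPM in NR-treated replicates 1 to 5. The groups overlapped, because aged replicate 4 was above young replicate 4. The log2 difference between aged and young HSC was -0.44 (SE 0.15, adjusted p = 0.0398). Counted by libraries that do not overlap, the helicase genes gave 4 of the 10 replication genes lower in aged than in young HSC, namely Mcm3, Mcm4, Mcm5 and Mcm7. Over all genes 5.53% were lower without overlap.

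**Figure D2:**
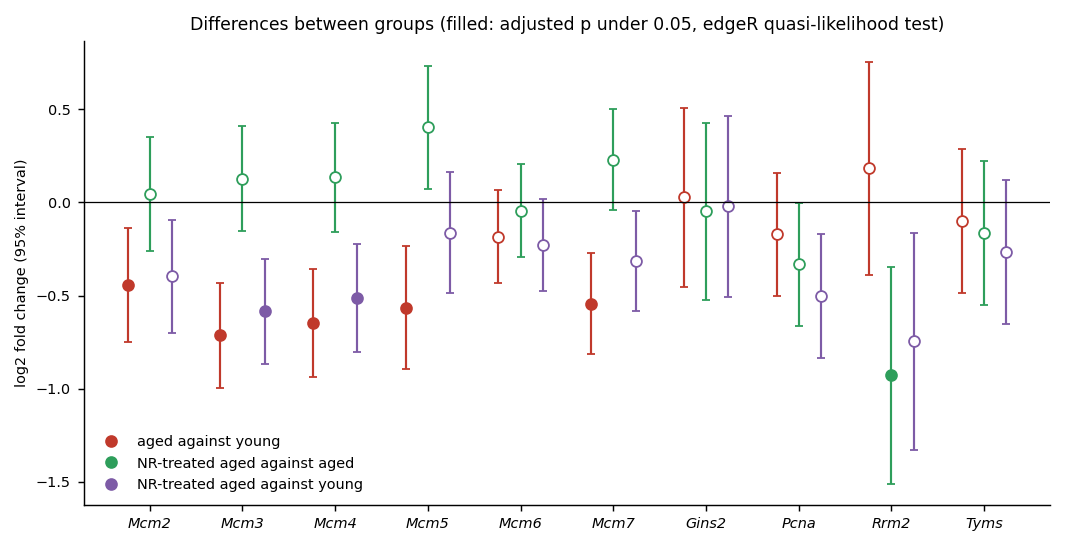
Log2 fold change of each replication gene (y axis) with its 95% interval from edgeR, for aged against young (red), NR-treated aged against aged (green) and NR-treated aged against young (purple). Filled points passed an adjusted p under 0.05: 5 helicase genes between aged and young, Rrm2 between NR-treated and aged, and Mcm3 and Mcm4 between NR-treated and young.

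Mcm6 held closer to its young level than the other subunits. It was at 314, 271, 296, 279 and 312 CPM in young, at 256, 250.4, 254, 274 and 261 CPM in aged and at 307, 176, 253, 236 and 284 CPM in NR-treated replicates 1 to 5. Aged replicate 4 was above young replicate 2, and the other aged libraries were below all young ones. The log2 difference between aged and young HSC was -0.18, with a 95% interval from -0.43 to 0.06 (adjusted p = 0.295), which includes 0 and does not show that the level was the same. The counts of the 6 helicase genes together were 1041 ± 51.6 CPM in young, 756 ± 65.6 CPM in aged and 813 ± 153 CPM in NR-treated HSC (SD, n = 5 each). Mcm6 made up 27.1% to 28.8% of these counts in young, 31.8% to 36.7% in aged and 29.8% to 32.0% in NR-treated libraries. The young range lay below both others, and the aged and NR-treated ranges overlapped by a narrow margin. This share was examined after the values were seen and is given as a description. Mcm3 went the other way, from 16.5% to 20.0% of the sum in young to 14.0% to 16.6% in aged libraries, with an overlap.

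**Figure D3:**
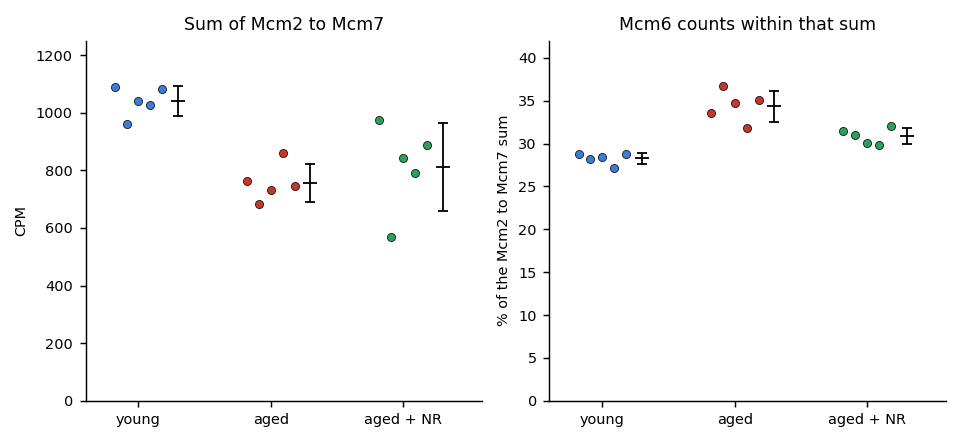
Left, summed CPM of Mcm2 to Mcm7 (y axis) per library; right, percent of that sum taken by Mcm6 (y axis), each for young, aged and NR-treated aged HSC with 1 point per mouse and black marks for the mean ± SD of 5. The aged sums (682 to 861 CPM) lie below the young sums (962 to 1090 CPM), and the Mcm6 share is 28.3 ± 0.682% in young, 34.4 ± 1.81% in aged and 30.9 ± 0.942% in NR-treated HSC.

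The genes outside the helicase did not pass between aged and young HSC. Gins2, a subunit of the GINS complex, was at 10.9 to 17.3 CPM in young, 10.6 to 16.9 CPM in aged and 7.75 to 19.5 CPM in NR-treated HSC, on 13 to 150 counts per library. Its log2 difference between aged and young HSC was 0.03 with a 95% interval from -0.45 to 0.51, which includes Mcm2's difference of -0.44 and not those of Mcm3, Mcm4, Mcm5 and Mcm7. The difference between Gins2 and these genes was not tested. Gins2 also shares 2758 exon bases with Gse1 on the opposite strand, which makes its counts uncertain. Gse1 did not pass in any comparison.

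Pcna was at 181, 234, 219.6, 170.1 and 186 CPM in young, at 142, 162, 159.8, 219 and 194 CPM in aged and at 159, 96.6, 143, 114 and 185 CPM in NR-treated replicates 1 to 5. The 3 groups overlapped, with the NR-treated libraries lowest on average. The log2 difference was -0.17 between aged and young HSC (adjusted p = 0.488), -0.33 between NR-treated and aged HSC (adjusted p = 0.197) and -0.50 between NR-treated and young HSC (95% interval -0.84 to -0.17, adjusted p = 0.0782). This last difference was called under DESeq2 (adjusted p = 0.0330) and, in edgeR's quasi-likelihood test, without NR-treated replicate 5 (adjusted p = 0.0282). The pseudogene Pcna-ps2 has a row of its own, at 41.8, 32.0 and 25.9 CPM on average in young, aged and NR-treated HSC, and reads may be split between it and Pcna.

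Tyms was at 136 to 178 CPM in young, 119.9 to 169 CPM in aged and 65.6 to 173 CPM in NR-treated HSC, and it did not pass in any comparison (log2 differences of -0.10, -0.17 and -0.27 for aged against young, NR-treated against aged and NR-treated against young). The level of Rrm2 spread more widely in aged HSC than that of any other replication gene. It was at 99.3, 71.1, 150.4, 115 and 109.8 CPM in young, at 86.1, 102, 189, 165 and 69.5 CPM in aged and at 84.2, 31.6, 93.7, 55.9 and 60.2 CPM in NR-treated replicates 1 to 5. Aged replicates 3 and 4 were above every other library, aged replicates 1 and 2 were within the range of young HSC, and replicate 5 was just below its lowest library. Between aged and young HSC the log2 difference of Rrm2 was 0.18 (95% interval -0.39 to 0.75, adjusted p = 0.690).

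The second comparison asked what NR treatment did to these transcripts in aged mice. Of the 10 genes, 1 passed the test, and it was lower: Rrm2, at 122 ± 52.0 CPM in aged and 65.1 ± 24.6 CPM in NR-treated HSC (SD, n = 5 each). Over all genes 8.07% were called, 4.18% of them lower and 3.88% higher as shares of the genes tested. The log2 fold change of Rrm2 was -0.93 (SE 0.28, adjusted p = 0.0452 in edgeR's quasi-likelihood test), and the groups overlapped. Aged replicates 3 and 4 were set aside after their high values were seen, a choice that by itself shrinks the difference. Without them the log2 fold change was -0.38 with an adjusted p of 0.500 in the same test. The call of Rrm2 was also lost under DESeq2 (adjusted p = 0.0577) and, in the quasi-likelihood test, without NR-treated replicate 2 (adjusted p = 0.0976). Leaving out any 1 of several other young, aged or NR-treated libraries lost it too. The call held in 11 of 26 alternatives.

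Aged replicates 3 and 4 were also the libraries with the highest Klf1 and Car1, 2 erythroid genes named here after their values were seen. Klf1, an erythroid transcription factor, was at 53.0 and 50.8 CPM in these 2, at 14.3 to 22.1 CPM in the other 3 aged libraries, at 13.2 to 23.8 CPM in young and at 4.38 to 20.1 CPM in NR-treated HSC. Car1, a carbonic anhydrase of erythroid progenitors, was at 89.6 and 86.8 CPM in them and at 0.539 to 36.3 CPM in the other 13 libraries. Both fell between aged and NR-treated HSC, with log2 fold changes of -1.48 for Klf1 (adjusted p = 0.0222) and -3.41 for Car1 (adjusted p = 0.00846). The call of Klf1 held in 11 of 15 fits with 1 library left out. The sum of the 11 erythroid markers did not follow Rrm2: it was 9010, 8792, 7429, 5580 and 7647 CPM in aged replicates 1 to 5, so replicate 4, with the second highest Rrm2, had the lowest sum. This sum is made up mostly of Car2 (2209 to 3218 CPM in aged libraries) and globin genes such as Hbb-bs (1868 to 3875 CPM). It therefore cannot speak for genes at the level of Klf1 and Car1. Replicates 3 and 4 also led the aged libraries in mature leukocyte markers, at 6518 and 6460 CPM against 3148 to 4440 CPM. They led them in progenitor markers as well, at 1540 and 1211 CPM against 854 to 1004 CPM. In young HSC the library with the highest Rrm2, replicate 3, was also the one with the highest Klf1 and Car1. Its leukocyte, progenitor and erythroid sums were the highest of the young libraries too. The part of these transcripts in the difference of Rrm2 was not tested.

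**Figure D4:**
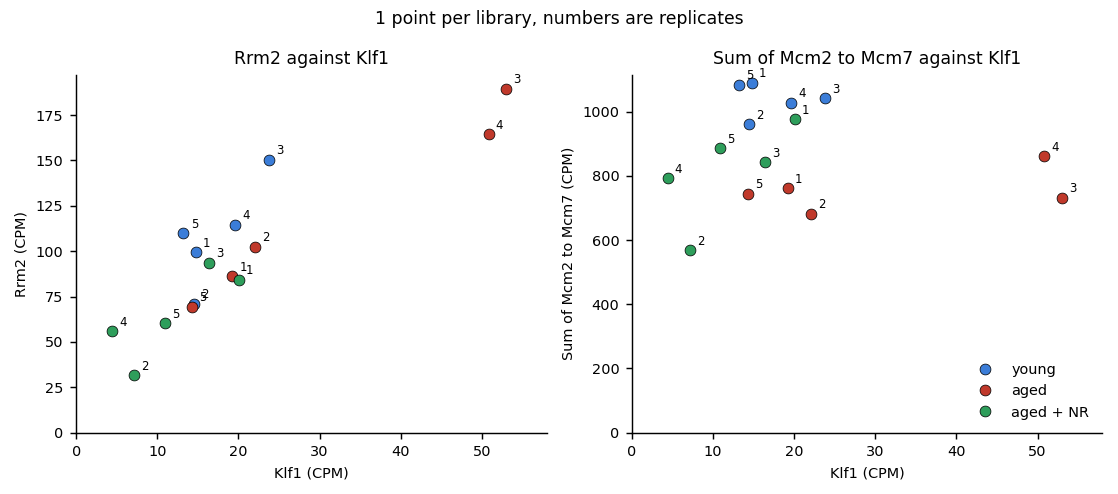
Rrm2 (left, y axis, CPM) and the sum of Mcm2 to Mcm7 (right, y axis, CPM) against Klf1 (x axis, CPM) in 15 libraries, coloured by group and numbered by replicate. Aged replicates 3 and 4 stand at the right with the highest Rrm2, whereas their helicase sums (732 and 861 CPM) stay below every young library.

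The helicase genes did not pass between NR-treated and aged HSC, and Mcm5 came closest. Mcm5 averaged 66.0 ± 6.94 CPM in aged and 87.0 ± 23.4 CPM in NR-treated HSC (SD, n = 5 each), a log2 difference of 0.40 with a 95% interval from 0.07 to 0.73 and an unadjusted p of 0.0190 (adjusted p = 0.116 in edgeR's quasi-likelihood test). No replication gene was called higher by this test, the likelihood ratio test, DESeq2 or limma-voom (0 of 10 each), and 1 of 10, Mcm5, had an unadjusted p under 0.05. Without NR-treated replicate 2 the log2 difference of Mcm5 was 0.55 with an adjusted p of 0.0148 in the quasi-likelihood test. That library was the lowest for Mcm5, so leaving it out by itself raises the difference. Mcm5 was called in 2 of 26 alternatives. Mcm7 followed with 0.23 (adjusted p = 0.276), Mcm4 and Mcm3 with 0.13 each, Mcm2 with 0.04 and Mcm6 with -0.04. The median over the 10 was 0.00, against 0.02 for all genes. The intervals of Mcm3 (-0.15 to 0.41) and Mcm4 (-0.16 to 0.43) include both no difference and part of the distance back to the young level.

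NR-treated replicate 2 stood below the rest. It was the lowest NR-treated library for all 10 genes and the lowest of all 15 libraries for 9 of them, with Mcm4 as the exception. The mean log2 CPM of the 10 genes was 5.94 in it, against 6.47 to 6.89 in the other 4 NR-treated libraries, 6.51 to 6.87 in aged and 6.85 to 7.02 in young HSC. Its 18 mitosis genes, 463 CPM in sum, were also the lowest of the 15 libraries, while its total of 3162434 counts was near the middle and its HSC markers, at 2247 CPM, were within the range of the others. Without it 1 replication gene passed between NR-treated and aged HSC, Mcm5 in place of Rrm2.

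NR-treated HSC were also compared with young HSC, the same young libraries as in the first comparison, and aged HSC are shared between the first and second, so the 3 comparisons are not independent of each other. Of the 10 genes, 2 were called, both lower: Mcm3 and Mcm4, the pair described above. Over all genes 4.47% were called, 1.91% lower and 2.56% higher, and 1.94% were lower with no overlap between the groups. All 10 log2 differences were below 0, with a median of -0.36 against 0.00 for all genes. The other helicase genes were at -0.40 for Mcm2 (adjusted p = 0.140), -0.31 for Mcm7 (adjusted p = 0.193), -0.23 for Mcm6 and -0.16 for Mcm5 (adjusted p = 0.643). Side by side, Mcm5 differed by -0.56 between aged and young and by -0.16 between NR-treated and young HSC, while Mcm3 differed by -0.71 and -0.59. Whether these genes responded to NR differently from each other was not tested.

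The calls were also computed without the libraries that stood apart. Without the 2 young libraries that held Y-linked transcripts, Mcm3, Mcm4, Mcm5 and Mcm7 were called between aged and young HSC (4 of 10), and Mcm2 was not. Between NR-treated and young HSC 0 of 10 were then called by edgeR's quasi-likelihood test, where Mcm3 had an adjusted p of 0.0888. The helicase sum of the other 3 young libraries was 962 to 1042 CPM and their Mcm6 share 27.1% to 28.4%. Without aged replicates 3 and 4, which were set aside after their values were seen, Mcm3, Mcm4 and Mcm5 were called (3 of 10) and Mcm7 had an adjusted p of 0.0546. Young replicate 3, whose leukocyte markers were the highest of the 15 libraries, had a helicase sum of 1042 CPM, within the 962 to 1090 CPM of young HSC. It was nevertheless the highest of the 15 libraries in the mean log2 CPM of the 10 genes, at 7.02. Its Mki67, at 390 CPM, and its summed mitosis genes, at 1999 CPM, were also the highest of the 15. The part of other blood cells in the differences between the groups was not tested.

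The machinery around these genes was examined in 7 further lists, 100 genes in all, which were drawn up by role. Between aged and young HSC 25 of the 100 were lower and 1 was higher, with a median log2 fold change of -0.25 against -0.03 for all genes tested. Over all genes 9.63% were called lower and 9.68% higher, the shares against which the counts of each list below are to be read. Without young replicates 1 and 5 the counts were 18 lower and 1 higher, and of the genes named below Dna2, Dnmt1, Nasp and Timeless were then not called (adjusted p = 0.0696, 0.0605, 0.0800 and 0.0960 in edgeR's quasi-likelihood test). The lower ones spanned helicase activation, polymerases, clamp loading and S phase control. Of 16 genes of origin firing 5 were lower, among them Topbp1, the activator of the ATR checkpoint kinase that also helps load CDC45, which went from 90.9 to 46.5 CPM (log2 fold change -0.93, adjusted p = 4.61e-05). Wdhd1, which tethers DNA polymerase alpha to the helicase, went from 67.6 to 29.4 CPM (log2 fold change -1.16, adjusted p = 0.000187), and Dbf4, the activating subunit of the CDC7 kinase, from 33.0 to 17.2 CPM (log2 fold change -0.91). Ticrr, needed for the loading of CDC45, was the lowest of this list with a log2 fold change of -1.45 (12.4 to 3.97 CPM). It was near the floor in aged HSC, with 0 CPM in replicate 2, the library with the lowest total.

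Of 12 polymerase genes 5 were lower in aged HSC. Pold1, the catalytic subunit of polymerase delta, went from 69.7 to 36.5 CPM (log2 fold change -0.98), and Pola1, that of polymerase alpha, from 117 to 59.7 CPM (-0.94). Pole and Pole2 of polymerase epsilon differed by -0.70 and -1.13. These 4, which were named for their small p, all had aged libraries below every young library, as 5.53% of all genes had.

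Clamp loading and lagging strand synthesis had 5 of 18 genes lower, among them the clamp loader subunit Rfc2 (206 to 138 CPM, log2 fold change -0.58), the ligase Lig1 (-0.56), the clamp unloader Atad5 (-0.66) and the nuclease Dna2 (-0.69). Of 8 genes for chromatin assembly at forks 3 were lower: Uhrf1, which brings the maintenance methyltransferase to new DNA (147 to 83.7 CPM, log2 fold change -0.82), that methyltransferase, Dnmt1 (-0.65), and the histone chaperone Nasp (-0.57). Chaf1a, the large subunit of the chromatin assembly factor, had -0.54 and did not pass. In nucleotide synthesis, the salvage kinase gene Tk1 had a log2 fold change of -0.45, Shmt2, of mitochondrial folate metabolism, -0.20 and the kinase gene Dck 0.14, and these 3 did not pass.

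In origin licensing 1 of 12 genes was lower and 1 was higher in aged HSC, near the shares of 9.63% and 9.68% over all genes. Cdt1, which loads the MCM ring, was at 47.6 to 61.2 CPM in young and 14.9 to 36.4 CPM in aged HSC (log2 fold change -1.04, adjusted p = 0.00145). Orc5, a subunit of the origin recognition complex, was higher in aged HSC (24.5 to 38.3 CPM, log2 fold change 0.63, adjusted p = 0.0026). Mcm9, a helicase of repair, had -0.64 and did not pass (adjusted p = 0.0640).

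Of 19 E2F and S phase regulators 5 were lower in aged HSC. E2f1, an activator of replication genes, went from 25.0 to 11.3 CPM (log2 fold change -1.10, adjusted p = 0.00442), the pocket protein Rbl1 from 41.4 to 23.4 CPM (-0.84), the phosphatase Cdc25a from 54.5 to 28.8 CPM (-0.91) and Dtl, which directs the destruction of CDT1 in S phase, from 131 to 66.4 CPM (-0.99, adjusted p = 5.23e-05). Of 18 mitosis genes 1 passed, the spindle motor Kif11 (44.5 to 22.0 CPM, log2 fold change -0.95, adjusted p = 0.0214), although the median of the list, -0.43, was further from 0 than that of any of the replication lists except origin firing. The mitosis genes spread widely between mice: Mki67 was at 116 to 390.2 CPM in young and 51.9 to 193 CPM in aged HSC (log2 fold change -0.92, adjusted p = 0.0552). Top2a had -0.62 and Nusap1 -0.53, and neither passed.

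**Figure D5:**
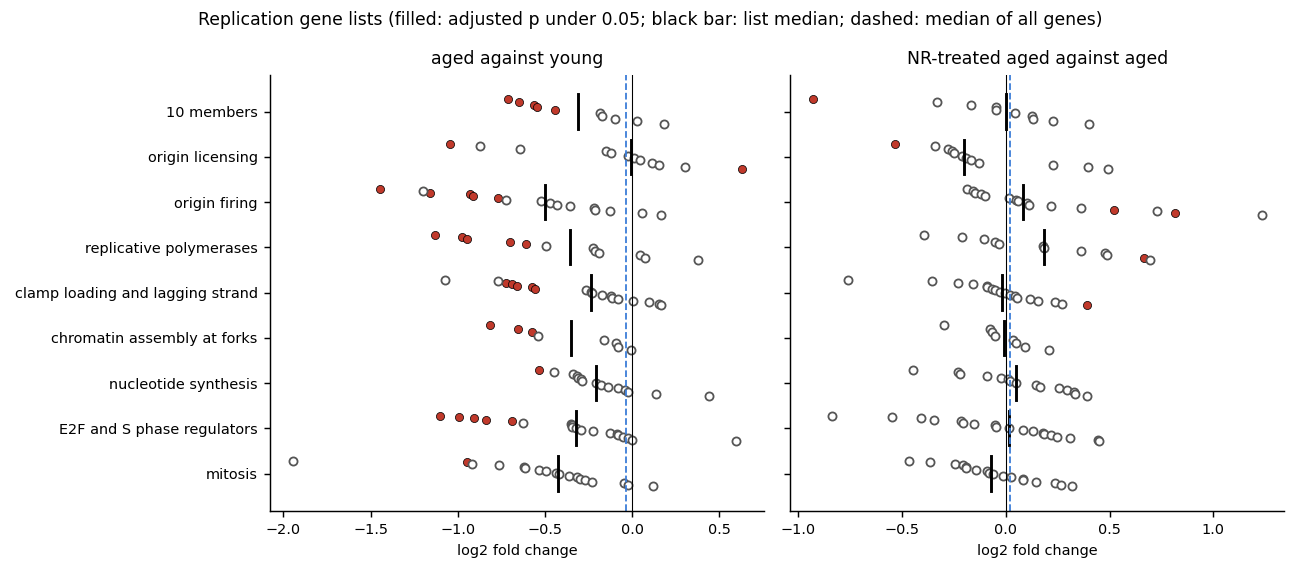
Log2 fold changes (x axes) of the 10 replication genes, the 7 further replication lists and the mitosis list (rows), 1 point per gene, for aged against young (left) and NR-treated aged against aged (right). Filled points passed an adjusted p under 0.05, black bars are list medians and the dashed line is the median of all genes; on the left nearly all filled points lie below 0, whereas on the right 4 filled points of the further lists lie above 0 and 1 of them, with Rrm2, below.

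Between NR-treated and aged HSC 4 of the 100 genes were higher and 1 was lower, where 3.88% of all genes were called higher and 4.18% lower, so the count of higher genes was near the share over all genes. Without aged replicates 3 and 4, 1 of the 100 was called, Wdhd1, which was higher. The median of 0.02 of the 100 equalled that of all genes to 2 decimals. The 4 were Topbp1, Wdhd1, Pold1 and Rfc2, each of which was lower in aged than in young HSC. Topbp1 was at 48.8, 32.4, 43.8, 57.1 and 50.4 CPM in aged and at 69.2, 58.7, 71.6, 66.8 and 75.2 CPM in NR-treated replicates 1 to 5, with no overlap (log2 fold change 0.52, adjusted p = 0.0194). Wdhd1 averaged 29.4 CPM in aged and 53.3 CPM in NR-treated HSC (log2 fold change 0.81, adjusted p = 0.0124), and Pold1 36.5 and 56.3 CPM (0.66, adjusted p = 0.0116). In both of these 1 aged library overlapped the NR-treated ones. Rfc2 was at 135 to 140.8 CPM in aged and 142.2 to 208 CPM in NR-treated HSC, so the groups were only just apart (0.39, adjusted p = 0.0348). Topbp1, Rfc2 and, below, Gmnn were named for their small p. The share of all genes without overlap between NR-treated and aged HSC is not reported here. With 1 library left out in turn, Wdhd1 and Pold1 stayed called in 15 of 15 fits, Topbp1 in 14 and Rfc2 in 7, where the adjusted p of Rfc2 reached 0.0951. The same aged libraries enter both comparisons, so the 2 fold changes of a gene are not independent.

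The gene that was lower after NR was Gmnn, the inhibitor of CDT1. It was at 99.9, 122, 107, 131 and 102 CPM in aged and at 89.8, 46.5, 78.2, 79.3 and 93.1 CPM in NR-treated replicates 1 to 5. The groups did not overlap, and replicate 2 was again the lowest NR-treated library (log2 fold change -0.53, adjusted p = 0.0387). The call of Gmnn held in 8 of 15 fits with 1 library left out, with an adjusted p up to 0.0912, and without NR-treated replicate 2 the log2 fold change was -0.39. Between NR-treated and young HSC 7 of the 100 genes were lower, where 1.91% of all genes were, with a median of -0.31 against 0.00 for all genes: Dbf4, Pole, Rnaseh2b, Nasp, Uhrf1, Cdc25a and Dtl. The count was 2 to 13 with 1 library left out, where 2 was without NR-treated replicate 2, and 3 without young replicates 1 and 5 (Dtl, Pole and Uhrf1). Uhrf1 and Dtl were called in 15 of 15 fits with 1 library left out, Pole in 11, Nasp in 9, Dbf4 in 8 and Cdc25a in 6. Uhrf1 was at 86.6 CPM on average in NR-treated HSC, close to its 83.7 CPM in aged HSC (log2 fold change 0.05), and differed from young HSC by -0.76 (adjusted p = 0.00276).

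The 10 genes rose and fell together within groups, mostly through 1 library. Over deviations from the group means in 15 libraries, the 45 pairs of genes had Pearson's r of 0.20 to 0.88 with a median of 0.58, and the 15 helicase pairs had a median of 0.64. Without NR-treated replicate 2 the medians were 0.25 and 0.29. These values describe points that share library, depth and scaling. The 5 genes whose log2 CPM followed the mean level of the 10 most closely, of 7896 ranked, were Rrm1, the large subunit of ribonucleotide reductase (r = 0.93), the histone variant gene H2afx (0.93), Timeless of the fork protection complex (0.93), the helicase Brip1 (0.92) and Cdca8, a subunit of the chromosomal passenger complex (0.92), each over 15 libraries. Without the 2 libraries with the most extreme mean level, young replicate 3 and NR-treated replicate 2, r was 0.77 to 0.94, and Timeless was the highest. Of these 5, Timeless was called lower in aged HSC (47.1 to 27.2 CPM, log2 fold change -0.77, adjusted p = 0.0173), and the other 4 did not pass.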

How the data were processed

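Libraries were 3′ biased with a UMI of 10 bp. Per the paper's methods and the submitters' processing notes, the authors aligned reads to GRCm38 with STAR 2.4.2a, removed duplicated UMIs and counted on GENCODE exons with featureCounts; its strand setting is not given in the sources used here. They deposited unnormalised read counts per gene for the 16154 genes that exceeded 5 reads and 2 CPM in 2 or more samples. Here the counts were fitted with edgeR 4.0.16 (R 4.3.3): TMM sizes, 1 fit of 15 libraries with group as the only factor, quasi-likelihood test, Benjamini-Hochberg adjustment over all genes, threshold 0.05. The authors used edgeR's likelihood ratio test, tried here as an alternative beside DESeq2 1.42.0 and limma 3.58.1 (voom). The tests were checked on simulated counts. CPM values use TMM sizes, and log2 CPM a prior count of 2. Values of 3 counts or fewer were taken as not told from absence, a limit that covers counting error only. Total counts were 764119 to 13318989.

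Each library is 1 mouse by the labels, and chi-square per degree of freedom between libraries of a group was 2.89 to 16.4, so none were copies. The 10 genes and the lists were chosen with earlier results of these data known, so no list was tested. Named genes are the 10, up to 4 genes per list with the smallest p among those with a mean of at least 5 CPM, and the 5 genes most like their mean level among those with at least 10 counts in every library. Promoters were RefSeq's, 250 bases before to 50 after each start, matched by symbol (8 of 10 matched). Positions are from GENCODE M21, while the authors counted on an earlier release. Protein sequences were not used here, and the call in the nucleotide synthesis list is not reported here. Tables were made with Python 3.11.15, pandas 2.3.3, NumPy 2.4.6 and SciPy 1.17.1, and figures with matplotlib 3.10.9.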

Additional observations from a re-analysis of the deposited data

Results flagged for a closer look

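In 33 groups of 5 libraries, 1 library of 2 groups lay farther from its neighbour than Dixon's 95% limit for 5 samples, 0.71 of the group's range, and chance passes about 1 in 20 groups. Mcm3 was at 143 CPM in aged replicate 4, against 104 to 112 CPM in the other 4 aged libraries, a gap of 0.801 of the range. Mcm4 was at 65.3 CPM in NR-treated replicate 2, against 92.6 to 101 CPM in the other 4, a gap of 0.768 of the range.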

How the results depend on the processing

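Over 26 alternatives Mcm3, Mcm4 and Mcm5 stayed called between aged and young HSC (26 of 26), Mcm7 in 25 and Mcm2 in 16, with adjusted p up to 0.150 for Mcm2. Mcm2 was lost on thinned counts, without young replicates 1 and 5, without aged replicates 3 and 4, and without each of young replicates 1, 3 and 5 and aged replicates 1, 2, 3 and 5. The replication genes called numbered 4 to 5 with 1 library left out, and 3 without aged replicates 3 and 4, an alternative chosen after seeing the data. Between NR-treated and aged HSC the number was 0 under DESeq2, with at least 10 counts in every library (8444 genes), in a fit of only the 2 groups, without young replicates 1 and 5 and without aged replicates 3 and 4. With 1 library left out it was 0 to 1: Rrm2 was lost without young replicate 1, 4 or 5, aged replicate 2, 3 or 4, or NR-treated replicate 4 or 5, and Mcm5 replaced it without NR-treated replicate 2 and with library totals. Between NR-treated and young HSC the number was 1 in a fit of the 2 groups and 0 without young replicates 1 and 5. With 1 library left out it was 0 to 2: 0 without NR-treated replicate 4, and Mcm3 alone without young replicate 4 or 5 or NR-treated replicate 2. Pcna was added there under DESeq2 and without NR-treated replicate 5, and Rrm2 on thinned counts (adjusted p = 0.0471) and with a replicate block (0.0421). The causes were not tested.

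All genes called between aged and young HSC, 3120, were 1576 on thinned counts, 1530 without aged replicates 3 and 4, 1862 without young replicates 1 and 5 and 1953 to 3533 with 1 library left out (lowest without aged replicate 3). Between NR-treated and aged HSC 1303 became 783 with at least 10 counts in every library, 434 thinned, 126 without aged replicates 3 and 4, and 422 to 1535 with 1 left out, where 422 was without aged replicate 3, 607 without aged replicate 5, 538 without NR-treated replicate 3 and 534 without replicate 4. Between NR-treated and young HSC 722 became 434 thinned and 452 to 922 with 1 left out (lowest without NR-treated replicate 4). Thinning lowers the depth of 14 libraries.

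Library totals in place of TMM moved the median of all genes to -0.16 between aged and young and to 0.16 between NR-treated and aged HSC, and the share of calls that were higher from 50.1% to 29.1% and from 48.1% to 78.4%. Relative to that shift Mcm2, Mcm3, Mcm4, Mcm5 and Mcm7 were at -0.41, -0.67, -0.61, -0.53 and -0.50 between aged and young HSC.

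Signs turned for differences that were not called. Mcm6 between NR-treated and aged HSC was 0.086 with library totals, 0.024 with at least 10 counts, 0.10 thinned and -0.12 to 0.060 with 1 library left out, and Mcm2 there was -0.063 to 0.15 with 1 left out. Gins2 between aged and young HSC was -0.017 in limma-voom, -0.099 with library totals, -0.052 with at least 10 counts, -0.20 thinned and -0.040 to 0.14 with 1 left out. Gins2 between NR-treated and aged HSC was 0.082 with library totals, 0.030 with at least 10 counts and -0.23 to 0.10 with 1 left out, and between NR-treated and young HSC 0.22 without young replicates 1 and 5 and -0.20 to 0.12 with 1 left out. Rrm2 between aged and young HSC was -0.35 without aged replicates 3 and 4 and -0.043 to 0.34 with 1 left out.

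Replicate numbers did not pair the mice: over all genes, the mean correlation of same-numbered libraries, as deviations from their group means, was 0.00211 (15 pairs, -0.27 to 0.13). With the replicate number as a block 2836, 1048 and 589 genes were called in the 3 comparisons, and 5, 1 and 3 replication genes, the added one being Rrm2 between NR-treated and young HSC.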
